A study of Rattus norvegicus with 58 samples.

Results

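Kidneys of male rats given 4-methylcyclohexanemethanol (MCHM) at 100 mg/kg were compared with kidneys of rats given 0 mg/kg. The comparison covers the 11194 genes with a probe set that passed a filter on dim probe sets. The members are the 4 kidney arrays titled 100 mg/kg and the 5 kidney arrays titled 0 mg/kg, 9 of the 58 arrays of the series. Both groups were Harlan Sprague-Dawley males, dosed by gavage for 5 days, and the labels give neither the rats' age nor the vehicle of the 0 mg/kg group. The rest of the series holds livers of the same doses and kidneys at 0.1, 1, 10, 300 and 500 mg/kg, with 4 arrays for each dose above 0 in each organ. Of these, the kidney groups at 10, 300 and 500 mg/kg and the liver groups at 100 and 0 mg/kg are set beside the 100 mg/kg kidneys below, and the kidneys at 0.1 and 1 mg/kg enter only as levels by dose.

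MCHM is an alcohol with a saturated carbon ring, used to clean coal by flotation. The kidney filters blood in the glomerulus, recovers most of the filtrate in the proximal tubule, concentrates urine in the loop of Henle and the collecting duct, and secretes organic acids and bases through transporters of the proximal tubule. Ring alcohols of this kind are generally oxidised to acids and conjugated before they are excreted, so the proximal tubule meets both the compound and its products. Injured tubule cells are known for switching on a small set of secreted and surface proteins, and for re-entering the cell cycle to replace lost neighbours.

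No gene passed the test between 100 mg/kg and control kidneys. Of 11194 genes tested on deposited log2 RMA values, 0 had a Benjamini-Hochberg adjusted p under 0.05 in limma (0%), and the smallest adjusted p was 0.628, for Ccnb1. Among genes higher at 100 mg/kg the smallest p-values were those of Ccnb1, Cdca3, Ccdc68, Cdc20 and Nusap1, and among lower genes that of Ccn2, a matrix signalling protein. All but Ccnb1 had an adjusted p of 0.978. Ccnb1, Cdca3, Cdc20 and Nusap1 act in mitosis, and these 4 passed the test in another comparison, in which 500 mg/kg kidneys were lower than 100 mg/kg kidneys. That comparison reads the same 100 mg/kg arrays, so it is not separate evidence for a difference from control. Cdc20 and Nusap1 were not called in it without 500 mg/kg replicate 2.

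The promoters of these 4 mitotic genes are shown for 2 motifs known from cell cycle promoters. These are the CCAAT box, found in all 4, and the TTTGAA element (a cell cycle genes homology region), found in Cdc20 and Nusap1. Only these exact letters were searched. The sequences are from RefSeq on build GRCr8, from 250 bases before to 50 bases after each gene's start, 5' to 3' on the gene's strand, with matches to CCAAT or TTTGAA on either strand in capitals.
Ccnb1, chr2:33655176-33655475, minus strand: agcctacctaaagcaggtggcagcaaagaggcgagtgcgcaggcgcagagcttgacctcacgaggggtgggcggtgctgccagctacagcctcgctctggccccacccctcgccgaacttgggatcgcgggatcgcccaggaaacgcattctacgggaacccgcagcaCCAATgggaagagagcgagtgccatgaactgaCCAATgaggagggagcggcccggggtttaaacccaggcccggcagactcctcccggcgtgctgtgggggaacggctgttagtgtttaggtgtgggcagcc
Cdca3, chr4:159320953-159321252, plus strand: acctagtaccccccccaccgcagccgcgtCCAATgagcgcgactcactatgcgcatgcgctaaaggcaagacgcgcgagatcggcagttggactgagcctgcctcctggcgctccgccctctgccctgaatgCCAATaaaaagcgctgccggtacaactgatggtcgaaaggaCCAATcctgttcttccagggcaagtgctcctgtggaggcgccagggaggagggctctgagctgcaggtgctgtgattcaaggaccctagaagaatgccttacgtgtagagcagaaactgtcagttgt
Cdc20, chr5:137255750-137256049, minus strand: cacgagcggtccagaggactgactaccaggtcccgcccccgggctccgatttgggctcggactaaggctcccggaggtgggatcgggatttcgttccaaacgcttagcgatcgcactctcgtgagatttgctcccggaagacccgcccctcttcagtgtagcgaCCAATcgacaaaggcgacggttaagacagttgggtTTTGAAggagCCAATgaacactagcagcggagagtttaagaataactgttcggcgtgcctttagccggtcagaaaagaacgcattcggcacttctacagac
Nusap1, chr3:127057045-127057344, plus strand: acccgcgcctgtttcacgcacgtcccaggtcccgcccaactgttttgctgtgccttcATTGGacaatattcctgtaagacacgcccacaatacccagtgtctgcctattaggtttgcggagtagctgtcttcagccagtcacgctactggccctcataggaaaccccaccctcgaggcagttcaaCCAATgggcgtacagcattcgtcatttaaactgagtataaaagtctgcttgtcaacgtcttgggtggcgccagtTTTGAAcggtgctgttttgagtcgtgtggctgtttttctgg
Ccnb1 held 2 CCAAT matches and 0 TTTGAA matches, Cdca3 held 3 and 0, and Cdc20 and Nusap1 each held 2 and 1. No matched bases were shared between the 2 motifs in these windows. A match is a description of letters, not a measured binding site, and how often each motif occurs in other promoters is given with the comparison of 500 and 100 mg/kg.

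Defining transcripts of kidney were at high levels on all 9 arrays. Umod, the urinary protein of the thick ascending limb, lay between 12.88 and 13.32 on the log2 scale at 100 mg/kg and between 12.88 and 13.79 in controls, against at most 5.16 on any liver array. Slc34a1, the phosphate carrier of the proximal tubule, lay between 13.06 and 13.44 at 100 mg/kg and between 12.80 and 13.40 in controls, against at most 5.49 in liver. Aqp2, the water channel of the collecting duct, lay between 9.77 and 10.34 at 100 mg/kg and between 10.12 and 11.37 in controls. Array medians of the 9 arrays spanned 5.33 to 5.37, correlations between pairs of the 9 arrays spanned 0.981 to 0.994, and 0 pairs were identical. None of 4 array quality measures passed an exact permutation test, two-sided, of 100 mg/kg against control arrays (lowest p = 0.349, adjusted p = 0.529).

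Several control arrays stood apart in transcripts of other cells, and these touch results below. Control replicate 2 read 10.19 for Alb, the plasma protein made by hepatocytes, while the 100 mg/kg arrays read 4.19, 4.44, 4.92 and 4.37 and the other controls read 5.93, 3.75, 5.19 and 4.38. Control replicates 3 and 5 had the highest mean of 3 tested urothelium markers, 5.80 and 6.0, against 4.66 to 5.4 on the 100 mg/kg arrays and 4.66 to 4.89 on the remaining controls. Psca, a urothelial surface protein, read 5.01, 5.56, 5.33 and 5.31 at 100 mg/kg and 5.01, 5.30, 7.85, 4.76 and 6.64 in controls, a difference of -0.61 that came to -0.13 without control replicate 3. Adipose transcripts were high on neither group, with a mean of 15 tested markers from 6.03 to 6.47 at 100 mg/kg and from 6.19 to 6.63 in controls. In bulk tissue, fewer cells of a type and less RNA per cell cannot be told apart.

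The differences between the groups were small, and most were bounded closely. The median difference (100 mg/kg minus control) over all genes was 0.00 on the log2 scale, and 5685 genes (50.8%) had a value above 0. The median standard error of a difference was 0.09. For 10469 genes (93.5%) the whole 95% interval lay within 1.5-fold of control, and for 11070 genes (98.9%) it lay within 2-fold. The interval of 0 genes lay wholly past 1.5-fold. Without correction for the number of genes, 537 genes (4.8%) had a p under 0.05, of which 284 were higher (2.54%) and 253 lower (2.26%), where 559.7 would be the number for uniform p-values. That share was 8.90% (995 genes) without control replicate 1, and it lay between 3.41% and 5.81% under every other setting tried. The 2 groups did not overlap in 163 genes (1.46%), 73 higher (0.652%) and 90 lower (0.804%) at 100 mg/kg. Only 36 genes (0.322%) differed by more than 1.5-fold, 12 higher and 24 lower, and 16 of these had an unadjusted p under 0.05. Of 4496 tested probe sets with no gene symbol, 191 had an unadjusted p under 0.05 and 0 passed the adjustment over all 19661 probe sets tested.

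**Figure D1:**
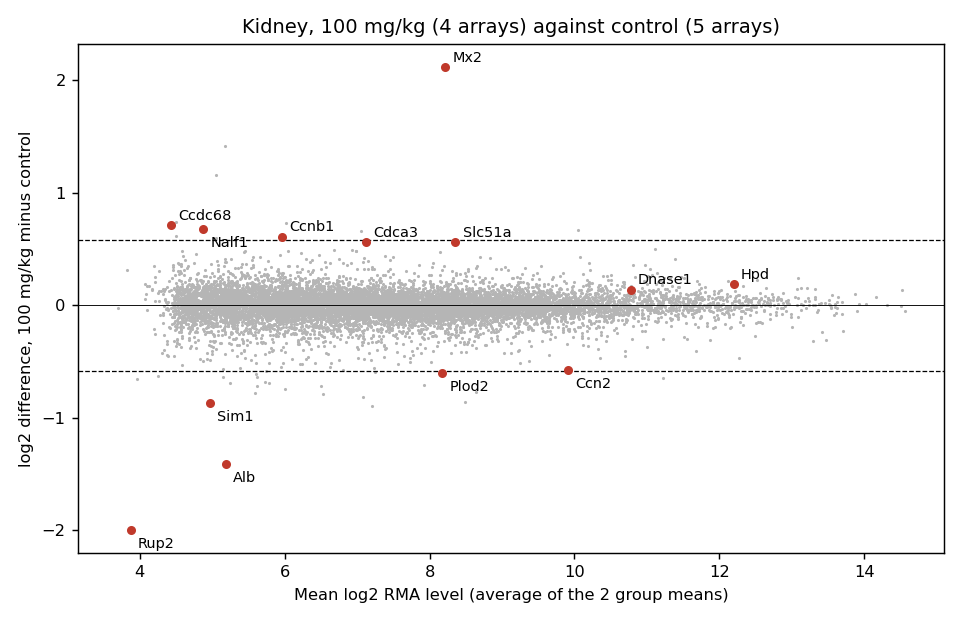
Each point is a gene, plotted by its mean log2 RMA level (the average of both group means, horizontal) and its log2 difference between the 4 arrays at 100 mg/kg and the 5 control arrays (vertical); dashed lines mark 1.5-fold and red points are genes named in the text. Only 36 of 11194 genes lie outside the dashed lines, and none of the plotted differences passed the test.

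The largest of these differences came from genes with wide spread between arrays. Mx2, an interferon-induced GTPase that blocks viruses, read 9.15, 10.03, 8.32 and 9.60 at 100 mg/kg and 10.27, 4.54, 8.57, 8.37 and 4.02 in controls. Control replicates 2 and 5 were low and the highest control lay above every dosed array, so the groups overlapped. The difference was 2.12 with a 95% interval from -0.37 to 4.61 (adjusted p = 0.978), and a second probe set of the gene gave 0.34. The 27 tested genes of the interferon response list had a median of -0.03. Rup2, a rat urinary protein, read 2.79, 2.89, 2.95 and 2.89 at 100 mg/kg and 5.54, 8.26, 3.39, 3.62 and 3.55 in controls. All 4 dosed readings and 3 of the 5 control readings lay below the 40th percentile of their arrays, where a difference has no sure size or order. The fitted difference was -1.99 (SE 0.71) with all arrays and -1.15 without control replicate 2, the array with high Alb. Alb itself differed by -1.41 with all arrays and by -0.33 without control replicate 2. Of the 8 tested hepatocyte and blood markers 1 was higher and 0 lower at an unadjusted p under 0.05.

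Among genes higher at 100 mg/kg, the 2 smallest p-values belonged to mitotic genes. Ccnb1 encodes cyclin B1, the partner of Cdk1 that drives entry into mitosis. It read 6.19, 6.10, 6.41 and 6.36 on the 100 mg/kg arrays and 5.77, 5.74, 5.49, 5.50 and 5.78 on the control arrays. Every dosed array lay above every control array. The difference was 0.61 (SE 0.13, 95% interval 0.35 to 0.87, adjusted p = 0.628), and a second probe set of the gene gave 0.35 with an interval that reached 0 (-0.02 to 0.72).

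Cdca3, which promotes mitotic entry by helping to degrade an inhibitory kinase, read 7.41, 7.17, 7.55 and 7.47 at 100 mg/kg and 6.77, 6.80, 6.73, 6.78 and 7.12 in controls. The groups did not overlap, with control replicate 5 closest to the dosed arrays. Its difference was 0.56 (SE 0.13, adjusted p = 0.978). Lower doses overlapped the 100 mg/kg arrays for Cdca3. It read 6.92 to 7.45 at 0.1 mg/kg, 6.82 to 7.21 at 1 mg/kg and 6.54 to 7.51 at 10 mg/kg. The Cdca3 difference between 100 and 10 mg/kg was 0.29. Cdc20, the activator of the complex that ends metaphase, read 7.41, 7.13, 7.48 and 7.06 at 100 mg/kg and 7.01, 6.88, 6.71, 6.90 and 6.91 in controls, again without overlap (0.39, SE 0.10). Nusap1, a protein that bundles spindle microtubules, read 7.01, 6.71, 7.27 and 6.96 at 100 mg/kg and 6.65, 6.67, 6.42, 6.57 and 6.75 in controls. Dosed replicate 2 lay below the highest control there, and the difference was 0.37 (SE 0.10, adjusted p = 0.978). The 100 mg/kg arrays were overlapped by lower doses for Cdc20 and Nusap1 as well. Cdc20 reached 7.23 at 0.1 and 1 mg/kg and 7.19 at 10 mg/kg. Nusap1 reached 6.95 at 0.1 mg/kg, 6.85 at 1 mg/kg and 6.77 at 10 mg/kg. Second probe sets gave intervals that reached 0, with 0.24 (-0.02 to 0.49) for Cdc20 and 0.25 (-0.01 to 0.52) for Nusap1. Leaving out any 1 of the 9 arrays kept the Ccnb1 difference between 0.56 and 0.67 and the Cdca3 difference between 0.51 and 0.64, with no call in any of these fits.

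The other genes with small p-values and higher values had varied roles. Ccdc68, a protein of the centriole's appendages, was higher by 0.71 (SE 0.18), with 4.83, 4.60, 5.06 and 4.66 at 100 mg/kg and 4.28, 4.36, 3.62, 3.65 and 4.49 in controls, with 2 of the 4 dosed readings and all 5 control readings below the 40th percentile of their arrays. Nalf1, an accessory subunit of a sodium leak channel, was higher by 0.68 (SE 0.20) at similarly low levels. Il7, a survival cytokine for lymphocytes, read 5.65 to 5.79 at 100 mg/kg and 5.28 to 5.47 in controls (0.36, SE 0.10). Timp4, an inhibitor of matrix proteases, was higher by 0.45 (SE 0.13), Bles03 by 0.22 (SE 0.06) and the mitochondrial COX1, a subunit of the last respiratory complex, by 0.13 (SE 0.04). The groups did not overlap in any of these 6 genes, and each had an adjusted p of 0.978. Slc51a, which exports bile acids and steroid conjugates, was also higher without overlap. It read 9.17, 8.59, 8.21 and 8.57 at 100 mg/kg and 8.12, 7.94, 7.94, 8.16 and 8.21 in controls (0.56, SE 0.24), and dosed replicate 1 carried much of it, since the difference was 0.38 without that array.

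Among genes lower at 100 mg/kg, Ccn2 had the smallest p. Ccn2, also called connective tissue growth factor, is a secreted protein made under TGF-beta and mechanical signals. It read 9.42, 9.74, 9.71 and 9.63 at 100 mg/kg and 10.04, 10.61, 10.15, 10.14 and 10.03 in controls. All dosed arrays lay below all controls, with a difference of -0.57 (SE 0.16, 95% interval -0.89 to -0.25, adjusted p = 0.978), and of -0.47 without control replicate 2, which was the highest. Group means by dose were 10.19 in controls, 9.40 at 0.1 mg/kg, 9.58 at 1 mg/kg, 9.45 at 10 mg/kg, 9.62 at 100 mg/kg, 9.41 at 300 mg/kg and 9.57 at 500 mg/kg, so 100 mg/kg was the dosed mean nearest to control. All of these doses are read against the same 5 control arrays.

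Ccn2's relatives and the wider matrix list gave no call. Of 41 tested members of the list for Ccn2 and matrix growth signalling, 1 was higher and 4 were lower at an unadjusted p under 0.05 (2.54% and 2.26% of all genes), and the median was -0.02, against 0.00 for all genes. Ccn1, a relative of Ccn2, differed by -0.69 (SE 0.30) and Amotl2, a junction protein that shares its control by the factor YAP, by -0.40 (SE 0.19). These 2 were picked for mention after their values were seen. Lamb1, a laminin chain of basement membrane, read 9.32, 9.34, 9.49 and 9.44 at 100 mg/kg and 9.69, 9.51, 9.50, 9.55 and 9.53 in controls (-0.16, SE 0.06), and Lama3, another laminin chain, differed by 0.28 (SE 0.11). Adamts5, a protease of proteoglycans, differed by -0.48 (SE 0.14) with overlap, and Plod2, which modifies collagen before cross-linking, by -0.60 (SE 0.19) without overlap. Plod2 and Lnx1, a ubiquitin ligase (-0.52, SE 0.19), were both highest on control replicate 3, at 9.10 and 7.16. Without that array the Plod2 difference was -0.45 and the Lnx1 difference -0.35.

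The remaining genes with the smallest p-values and lower values also had varied roles. Sim1, a transcription factor of the bHLH-PAS family, read 4.58, 3.98, 5.06 and 4.49 at 100 mg/kg and 4.52, 6.13, 5.69, 5.33 and 5.30 in controls. Control replicate 1 lay among the dosed arrays, and the difference was -0.87 (SE 0.24, adjusted p = 0.978). For Sim1, 3 of the 4 dosed readings and 1 of the 5 control readings lay below the 40th percentile of their arrays. The Sim1 difference therefore has no sure size. Ube3a, a ubiquitin ligase, differed by -0.30 (SE 0.09), and 3 more of its probe sets gave -0.17, -0.10 and 0.06. Nfatc2, a factor switched on by calcineurin, differed by -0.33 (SE 0.10) without overlap, but its other probe set gave 0.14, and Thumpd3, which methylates transfer RNA, differed by -0.19 with 0.12 from its other probe set. Hspa4, a chaperone partner, was lower without overlap by -0.21 (SE 0.07), with 9.81, 9.68, 9.90 and 9.80 at 100 mg/kg and 10.11, 10.05, 9.91, 10.02 and 9.96 in controls. Zfp280d, C11h3orf70 and Apeg3 differed by -0.24, -0.30 and -0.33. A second probe set gave -0.03 (-0.36 to 0.29) for C11h3orf70 and -0.22 (-0.49 to 0.04) for Apeg3. Ccdc127, -0.51 without overlap, rested on dosed replicate 2, which read 6.76 against 7.65 to 7.76 on the other dosed arrays. Without it the difference was -0.26, and the other probe sets of Ccdc127 gave -0.11 and -0.02.

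The list for cell cycle and mitosis held 0 called members. Of 36 tested genes, 10 were higher and 2 lower at an unadjusted p under 0.05, against 2.54% and 2.26% of all genes, and the median was 0.15. That median was 0.07 without 100 mg/kg replicate 3 and at most 0.20 with any other array left out. The mean of the list was 6.78, 6.57, 6.92 and 6.66 on the 100 mg/kg arrays and 6.62, 6.60, 6.46, 6.60 and 6.72 on the control arrays. Dosed replicates 1 and 3 lay above all controls, and dosed replicate 2 lay below 4 of the 5 controls. Among members that act in mitosis itself, picked after their values were seen, Ube2c, the enzyme that starts ubiquitin chains at the end of metaphase, differed by 0.49 (SE 0.14), Bub1, a spindle checkpoint kinase, by 0.46 (SE 0.18), and Cdk1, the kinase of cyclin B1, by 0.43 (SE 0.15). Members that act in DNA replication were also picked after their values were seen, and the tested subunits of the replicative helicase lay mostly below 0. The differences were -0.25 (SE 0.12, without overlap) for Mcm5, -0.18 for Mcm6, -0.16 for Mcm4, -0.10 for Mcm7 and -0.04 for Mcm2. Mcm3 alone lay above 0, at 0.17. Pcna, the sliding clamp, differed by -0.04. Ccnd1, the cyclin of the early growth phase and picked in the same way, differed by -0.45 (SE 0.20). Mki67, a general mark of cycling cells, read 5.94, 5.23, 6.26 and 5.17 at 100 mg/kg and 5.19, 5.86, 5.21, 5.65 and 5.73 in controls, with full overlap (0.13, SE 0.26).

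**Figure D2:**
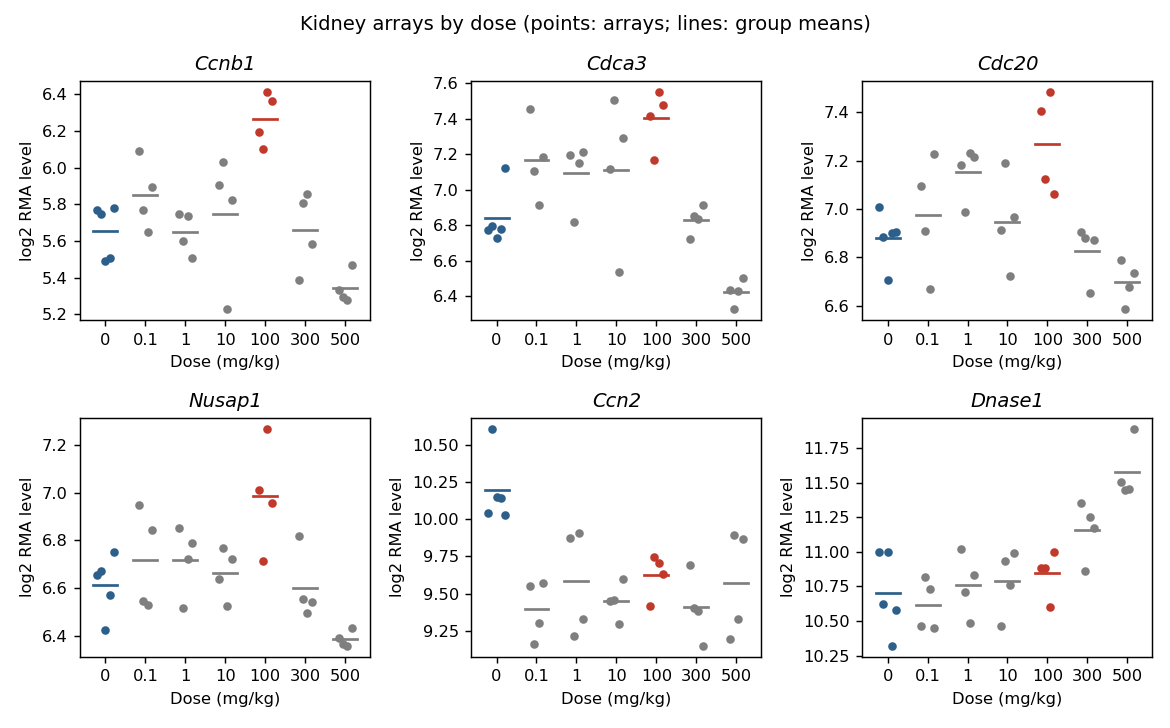
The log2 RMA level (vertical) of 6 genes on every kidney array is plotted against dose from 0 to 500 mg/kg (horizontal, evenly spaced steps), with arrays as points and group means as lines; 100 mg/kg is red and the control blue. Ccnb1, Cdca3, Cdc20 and Nusap1 have their highest mean at 100 mg/kg and their lowest at 500 mg/kg, Ccn2 is highest in controls, and Dnase1 is highest at 500 mg/kg.

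Against 500 mg/kg kidneys, Ccnb1, Cdca3, Cdc20 and Nusap1 passed the test. That comparison, 500 minus 100 mg/kg, called 26 genes (0.232%), 3 higher (0.0268%) and 23 lower (0.205%) at 500 mg/kg, and 822 genes (7.34%) had an unadjusted p under 0.05, 4.12% of all genes higher and 3.22% lower. Ccnb1 averaged 5.34 ± 0.09 at 500 mg/kg and 6.27 ± 0.15 at 100 mg/kg (SD, n = 4 each), a fall by 0.93 on the log2 scale (SE 0.13, limma adjusted p = 0.00149), while controls averaged 5.66 ± 0.15 (n = 5). Its group means in dose order were 5.66 in controls, 5.85 at 0.1 mg/kg, 5.65 at 1 mg/kg, 5.75 at 10 mg/kg, 6.27 at 100 mg/kg, 5.66 at 300 mg/kg and 5.34 at 500 mg/kg. Cdca3 fell by 0.98 (SE 0.14, limma adjusted p = 0.00149) and Cdk1 by 1.01 (SE 0.16, limma adjusted p = 0.00267).

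Of the 23 genes that were lower at 500 than at 100 mg/kg, 10 were among the 36 tested genes of the cell cycle list, where 0.205% of all genes were called lower. Those named beyond the 5 largest values in each direction were chosen after their values were seen. Kif20a and Prc1, which build the central spindle, fell by 0.92 and 0.91, and Ect2, which triggers the closing furrow, fell by 0.74. Ube2c fell by 0.79, Ccnb2, a second mitotic cyclin, by 0.89, and Nusap1 and Cdc20 by 0.60 and 0.57. In a limma fit over all probe sets the second probe set of Ccnb1 was also called (-0.91, adjusted p = 0.0478), whereas those of Nusap1 (-0.52, adjusted p = 0.232) and Cdc20 (-0.46, adjusted p = 0.322) were not. Cdkn3, a phosphatase of cyclin-dependent kinases, fell by 1.04, although its 100 mg/kg arrays were close to control (0.04, SE 0.20). Among called genes outside the cell cycle were Akr1b8, an aldo-keto reductase, which fell by 0.87, Slc17a2, a transporter of the phosphate carrier family, which fell by 0.48, and Il7, which fell by 0.50. Yars2, the mitochondrial tyrosyl-tRNA synthetase, rose by 0.35, Copz2, a coat protein of transport vesicles, by 0.46, and Dnase1, a secreted nuclease that digests DNA, by 0.73.

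All 23 genes that were lower at 500 mg/kg had a 100 mg/kg value above control, by 0.04 to 0.61 with a median of 0.30, and a 500 mg/kg value below control, with a median of -0.42. Both comparisons read the same 100 mg/kg arrays, so these values are not separate evidence for either. Their median at 500 minus 100 mg/kg was -0.76. Of the 36 cell cycle genes, 17 (47.2%) had their highest group mean at 100 mg/kg, against 10.6% of all genes. At 1 mg/kg 10 of them (27.8%) had their highest mean, against 17.8% of all genes. Their lowest mean was at 500 mg/kg in 29 (80.6%), against 14.1% of all genes. The 36 include the 10 list members called lower at 500 than at 100 mg/kg, so these shares are not separate evidence for that fall.

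The count against 500 mg/kg depended on single arrays. It was 8 without 100 mg/kg replicate 1, 9 without 100 mg/kg replicate 3, 5 without 500 mg/kg replicate 2, 11 without 500 mg/kg replicate 3 and 17 without 500 mg/kg replicate 4. The 5 genes called without 500 mg/kg replicate 2 were Ccnb1, Cdca3, Cdk1, Kif20a and Tacc3, a protein that stabilises spindle microtubules, so Cdc20 and Nusap1 were not called there. A second Tacc3 probe set gave -0.08 at 500 minus 100 mg/kg (limma adjusted p = 0.914 over all probe sets), where the one used gave -0.67, and -0.09 at 100 mg/kg minus control, where the one used gave 0.28. Outside the 100 mg/kg and control groups, 300 mg/kg replicate 3 and 500 mg/kg replicate 3 had high adipose transcripts (list means of 10.34 and 9.29). Without both, 9 genes were called, all lower at 500 mg/kg and all among the 23. Ccnb1 then fell by 0.90 (limma adjusted p = 0.0113), Cdca3 by 0.98 (limma adjusted p = 0.0113) and Nusap1 by 0.59 (limma adjusted p = 0.0460). Cdc20 (-0.57) and Dnase1 (0.77) were no longer called, each with a limma adjusted p of 0.0595. The fit of the 100 mg/kg and control comparison called 0 genes with and without these arrays.

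A promoter sequence was at hand for 19 of the 23 genes lower at 500 than at 100 mg/kg. CCAAT was found on either strand in 17 (89.5%) of them, against 37.7% of the 9351 tested genes with a promoter and 37.5% of all 33469 promoters. TTTGAA was found in 12 (63.2%), against 11.1% of the tested genes and 18.3% of all promoters. Both motifs were found in 12 of the 19 (63.2%) and in 4.58% of the tested genes. These shares are a description of 300-base windows and were not tested, and Ccnb1 and Cdca3 hold no TTTGAA in theirs.

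The neighbouring doses gave no call. Between 100 and 10 mg/kg kidneys 0 genes passed the limma test (0%), with 491 (4.39%) at an unadjusted p under 0.05, 1.72% of all genes higher and 2.67% lower, and Ccnb1 was 0.52 higher at 100 mg/kg (adjusted p = 0.923). Gimap6, a GTPase of lymphocytes, differed by 0.31 between 100 and 10 mg/kg and by 0.23 between 100 mg/kg and control. Polr1b, a subunit of RNA polymerase I, differed by -0.40 between 100 and 10 mg/kg and by -0.22 between 100 mg/kg and control. Cry2, a clock repressor, differed by -0.41 between 100 and 10 mg/kg and by -0.07 between 100 mg/kg and control. Of 18 tested circadian clock genes, 3 were higher and 8 lower at 100 than at 10 mg/kg at an unadjusted p under 0.05 (1.72% and 2.67% of all genes), with 0 called, whereas against control 0 of the 18 had such a p. Of those 11, chosen for mention after their values were seen, Bmal1, a clock activator, differed by 0.83 and Dbp, a clock output factor, by -1.41 between 100 and 10 mg/kg, and by 0.23 and -0.33 between 100 mg/kg and control. The labels give no time of day for the kidneys. Between 300 and 100 mg/kg kidneys 0 genes passed (0%), with 541 (4.83%) at an unadjusted p under 0.05, 2.05% of all genes higher and 2.79% lower. Ccnb1 was 0.61 lower at 300 than at 100 mg/kg (adjusted p = 0.355).

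Genes called at the higher doses against control had differences from -0.18 to 0.19 at 100 mg/kg. At 300 mg/kg 3 genes were called against control (0.0268%), Akr1e2 higher (0.00893%) and Proc and Asap2 lower (0.0179%). Akr1e2, an aldo-keto reductase, differed by 0.26 at 300 mg/kg and by 0.05 at 100 mg/kg, and Proc, the anticoagulant protein C, by -0.51 and -0.02. Asap2, a GTPase-activating protein, differed by -0.33 at 300 mg/kg and by -0.18 (SE 0.06) at 100 mg/kg. At 500 mg/kg 3 genes were called (0.0268%), all higher. Hpd, a dioxygenase of tyrosine breakdown, was 0.48 higher at 500 mg/kg and 0.19 (SE 0.07) at 100 mg/kg, where it read 12.38, 12.27, 12.25 and 12.27 against 12.23, 12.10, 12.03, 12.07 and 12.09 in controls. Every 100 mg/kg array lay above every control for Hpd. The lower doses read much the same as 100 mg/kg for this gene. Hpd read 12.18 to 12.38 at 0.1 mg/kg, 12.18 to 12.56 at 1 mg/kg and 12.17 to 12.33 at 10 mg/kg. Dnase1 was 0.87 higher at 500 mg/kg and 0.14 (SE 0.14) at 100 mg/kg, and Yars2 was 0.35 higher at 500 mg/kg and 0.00 at 100 mg/kg. All of these differences use the same control arrays.

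No injury marker passed the test. Of 16 tested markers, 0 were called and 0 had an unadjusted p under 0.05 in either direction (2.54% and 2.26% of all genes), and the median was -0.10. Lcn2, a secreted iron-binding protein of injured tubules, read 5.05, 5.50, 5.30 and 5.54 at 100 mg/kg and 5.11, 5.20, 5.57, 5.48 and 5.28 in controls (0.02, 95% interval -0.39 to 0.44). Clu, a chaperone shed into urine, differed by 0.05 (-0.20 to 0.31), Timp1, a protease inhibitor of scarring tissue, by 0.03 (-0.15 to 0.20) and Spp1, or osteopontin, by -0.47 (-1.26 to 0.33). Without control replicate 3 the Spp1 difference was -0.23. Anxa2, a membrane-binding protein, Cp, a copper carrier, and Krt18, an epithelial filament, differed by -0.24, -0.23 and -0.29. Each had an interval across 0 for the probe set used. Other probe sets of Cp gave -0.30 (-0.58 to -0.015) and -0.14 (-0.41 to 0.13). Without control replicate 3 Anxa2 differed by -0.14 and Krt18 by -0.17, and without control replicate 5 Krt18 differed by -0.15. The mean of the 16 markers was 8.01 to 8.08 at 100 mg/kg, against 8.36 on control replicate 3, 8.2 on control replicate 5 and 8.02 to 8.06 on the other controls. Havcr1, the surface receptor known as KIM-1, did not pass the filter on dim probe sets. It read 3.68 to 4.04 at 100 mg/kg and 3.81 to 4.41 in controls, below the 40th percentile of every one of the 9 arrays (4.65 to 4.70).

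**Figure D3:**
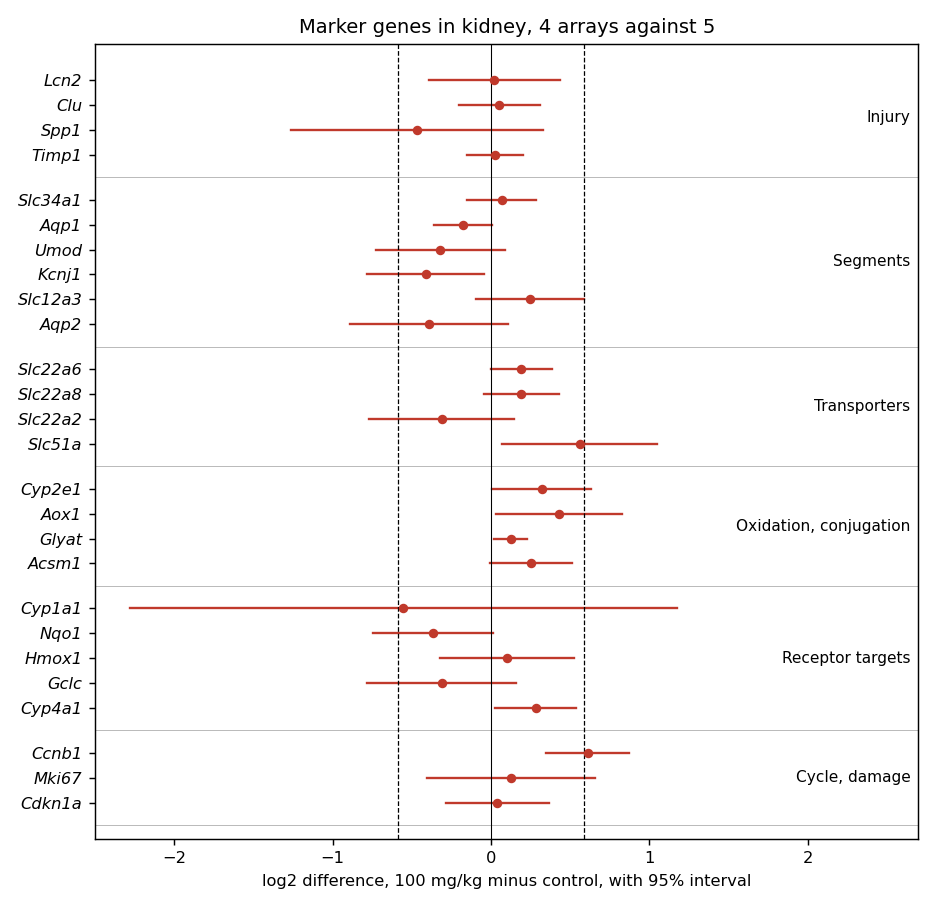
Points give the log2 difference between 100 mg/kg (4 arrays) and control (5 arrays) for marker genes and bars the 95% interval of the limma fit, with dashed lines at 1.5-fold. No gene passed the adjusted test; Lcn2, Clu, Timp1 and Cdkn1a have intervals inside the dashed lines, and Cyp1a1 has the widest, from -2.28 to 1.17.

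Markers of the nephron's segments showed no call. Of 25 proximal tubule genes 1 was higher and 0 lower at an unadjusted p under 0.05 (Cyp2e1, described with the alcohol oxidation list), with a median of 0.06. Of 20 genes of the loop of Henle and distal tubule 0 were higher and 1 lower (Kcnj1), with a median of -0.05. Slc34a1 differed by 0.07 (SE 0.11), though a second probe set of it gave 0.45 (0.14 to 0.76). Aqp1, the water channel of proximal tubule and thin limb, differed by -0.18 (SE 0.09), and a second probe set of it gave -0.02 (-0.27 to 0.23). Miox, which breaks down inositol in the proximal tubule, read 14.19 to 14.25 at 100 mg/kg and 14.05 to 14.19 in controls (0.08, SE 0.04). Kcnj1, the potassium channel of the thick ascending limb, read 8.08, 8.23, 8.33 and 8.26 at 100 mg/kg and 8.30, 8.48, 9.23, 8.71 and 8.47 in controls. Its difference was -0.41 (SE 0.18) with all arrays and -0.26 without control replicate 3, which was its highest. Umod differed by -0.32 (SE 0.20), Ptger3, a prostaglandin receptor, by -0.32 (SE 0.18) and Slc12a3, the thiazide-sensitive salt carrier, by 0.25 (SE 0.17), which came to 0.09 without control replicate 3.

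The collecting duct and glomerulus lists, of 21 tested genes each, held 0 genes at an unadjusted p under 0.05. Aqp2 differed by -0.39 (SE 0.24), and by -0.18 without control replicate 3, which read 11.37. Avpr2, the vasopressin receptor that directs Aqp2, differed by -0.31 (SE 0.16), and Slc26a4, a chloride and bicarbonate exchanger, by 0.27 (SE 0.20). Control replicate 3 also had the highest mean of the collecting duct list, 8.30, against 7.75 to 7.94 on the 100 mg/kg arrays and 7.71 to 8.04 on the other controls. The part of its tissue content in these differences was not tested beyond leaving it out. Agtr1a, the angiotensin receptor, differed by 0.19 (SE 0.10) and Agt, the precursor angiotensinogen, by -0.26 (SE 0.21). Atp1b1, a subunit of the sodium pump, read 13.45 to 13.61 at 100 mg/kg and 13.55 to 13.69 in controls (-0.09, SE 0.06).

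Transporters that secrete organic acids and bases showed no call. Of 28 tested genes, 2 were higher and 0 lower at an unadjusted p under 0.05 (2.54% and 2.26% of all genes), and the median was -0.03. Slc22a6, the main organic anion carrier of the basal side, read 11.93, 11.93, 11.69 and 11.70 at 100 mg/kg and 11.92, 11.72, 11.24, 11.63 and 11.59 in controls (0.19, SE 0.09), and its difference was 0.098 without control replicate 3, which was the lowest. Slc22a8, a second anion carrier, differed by 0.19 (SE 0.12), Abcc6, an exporter, by 0.27 (SE 0.12) and Slc22a2, the organic cation carrier, by -0.31 (SE 0.22). The groups overlapped for all 4.

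Enzymes that could act on an alcohol and its acid were likewise uncalled. In the alcohol and aldehyde oxidation list 2 of 23 genes were higher and 0 lower at an unadjusted p under 0.05, with a median of -0.03. Cyp2e1, an alcohol-oxidising cytochrome, read 11.25, 10.94, 11.41 and 11.24 at 100 mg/kg and 11.21, 11.30, 10.81, 10.67 and 10.45 in controls (0.32, SE 0.15). Its difference from the same controls was 0.60 at both 300 and 500 mg/kg, and it was not called at either dose. Aox1, an aldehyde oxidase, differed by 0.43 (SE 0.19). Glyat, which joins acyl groups to glycine, read 11.12, 11.11, 11.15 and 11.12 at 100 mg/kg and 11.14, 10.96, 10.87, 11.03 and 10.99 in controls (0.13, SE 0.05), and Acsm1, which activates such acids, differed by 0.25 (SE 0.13). Acsm2, a relative of Acsm1 at a higher signal, differed by 0.08 (SE 0.05).

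No tested target of the receptors that sense foreign compounds was called. Of 35 listed CAR and PXR targets 15 were tested, and of 13 genes of the AhR list 8 were tested. Among these tested genes 0 had an unadjusted p under 0.05, and the rest of both lists was not tested here. Cyp1a1, the classic AhR target, read 6.54, 5.30, 7.94 and 8.03 at 100 mg/kg and 5.28, 8.58, 8.19, 7.23 and 8.24 in controls, a spread that leaves an interval from -2.28 to 1.17. Nr1i2, the receptor PXR, differed by 0.22 (SE 0.12). Nfe2l2, the factor Nrf2 itself, read 10.06, 10.38, 9.97 and 10.42 at 100 mg/kg and 10.16, 10.02, 9.85, 10.16 and 9.98 in controls (0.17, SE 0.13). Of 41 genes of glutathione and the Nrf2 pathway, 0 were higher and 2 lower at an unadjusted p under 0.05. Gstp1, a glutathione transferase, differed by -0.46 (SE 0.20), Me1, a source of NADPH, by -0.21 (SE 0.10), Nqo1, a quinone reductase, by -0.37 (SE 0.18) and Hmox1, which breaks down haem, by 0.10 (SE 0.20). Gclc, which makes the precursor of glutathione, read 13.06, 13.10, 13.52 and 13.60 at 100 mg/kg and 12.74, 13.76, 13.99, 13.81 and 13.84 in controls, with control replicate 1 below the rest.

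Fuel and lipid lists held no called gene. In the list for PPAR alpha and fat burning, 1 of 38 genes was higher at an unadjusted p under 0.05, and it was Cyp4a1, a fatty acid hydroxylase (0.28, SE 0.12). Cholesterol synthesis genes had a median of -0.06 over 25 members, 20 of them below 0 where 50.8% of all genes were above 0, and 0 at an unadjusted p under 0.05, with Idi1, Cyp51 and Fdps, 3 enzymes of the sterol pathway, at -0.23, -0.19 and -0.10. In the fatty acid synthesis list, of 22 genes, 1 was lower at an unadjusted p under 0.05 (Me1, also in the Nrf2 list). The mean of that list was 8.40 on control replicate 1 and at most 8.04 on the other 8 arrays. Fads1, a desaturase, differed by 0.26 (SE 0.15) and Pnpla3, a lipase, by -0.18 (SE 0.13). Of 38 genes of glucose production and amino acid metabolism 4 were higher and 0 lower at an unadjusted p under 0.05 (2.54% and 2.26% of all genes), namely Hpd, Pc, which carboxylates pyruvate (0.23, SE 0.11, chosen after its value was seen), Ddc, which makes dopamine in the tubule (0.26, SE 0.12), and Kmo, an enzyme of tryptophan breakdown (0.18, SE 0.08). Pck1, the rate-limiting step of glucose production, differed by -0.11 (SE 0.13). All 57 oxidative phosphorylation genes had a 95% interval within 1.5-fold of control, and their median was 0.01. Ndufa5, a subunit of respiratory complex I, read 10.63, 10.44, 10.57 and 10.69 at 100 mg/kg and 10.42, 10.29, 10.39, 10.22 and 10.44 in controls (0.23, SE 0.09), and Ndufa6 of the same complex differed by 0.08 (SE 0.04).

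Stress and immune lists held no called gene. Of 37 stress and folding genes 1 was higher and 2 lower at an unadjusted p under 0.05, and 28 had values below 0, where 50.8% of all genes were above 0. Herpud1, a factor of endoplasmic reticulum degradation, read 10.08, 10.16, 9.84 and 10.05 at 100 mg/kg and 10.21, 10.54, 10.32, 10.22 and 10.35 in controls, without overlap (-0.29, SE 0.11). Hspa1a, the inducible heat shock protein, differed by -0.48 (SE 0.21), and Psph, the last enzyme of serine synthesis, by 0.31 (SE 0.14). Of 17 p53 targets 0 had an unadjusted p under 0.05, and Cdkn1a, the cell cycle inhibitor p21, differed by 0.04 (SE 0.16). Rprm, another growth arrest gene, differed by 0.26 (SE 0.15). Egr1 and Fos, immediate early factors, differed by -0.36 (SE 0.21) and 0.15 (SE 0.09). Cry1, a clock repressor, differed by 0.41 (SE 0.21) and Npas2, a clock activator, by 0.38 (SE 0.27). Cxcl10, a chemokine induced by interferon, differed by -0.38 (SE 0.22). Of 20 macrophage and lymphocyte markers 1 was lower, Adgre1, a surface receptor that marks macrophages, with 5.17, 5.34, 5.45 and 5.07 at 100 mg/kg and 5.46, 5.79, 5.46, 5.77 and 5.45 in controls (-0.33, SE 0.14). Ms4a1, a B cell surface protein, differed by -0.22 (SE 0.11), at levels of 4.23 to 4.61 at 100 mg/kg and 4.61 to 4.74 in controls, below the 40th percentile on all 4 dosed arrays and 3 of the 5 controls. Kdr, an endothelial growth factor receptor, differed by 0.24 (SE 0.11), Col1a2, a collagen of stroma, by -0.14 (SE 0.12) and Apoc3, an apolipoprotein, by 0.29 (SE 0.12).

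**Figure D4:**
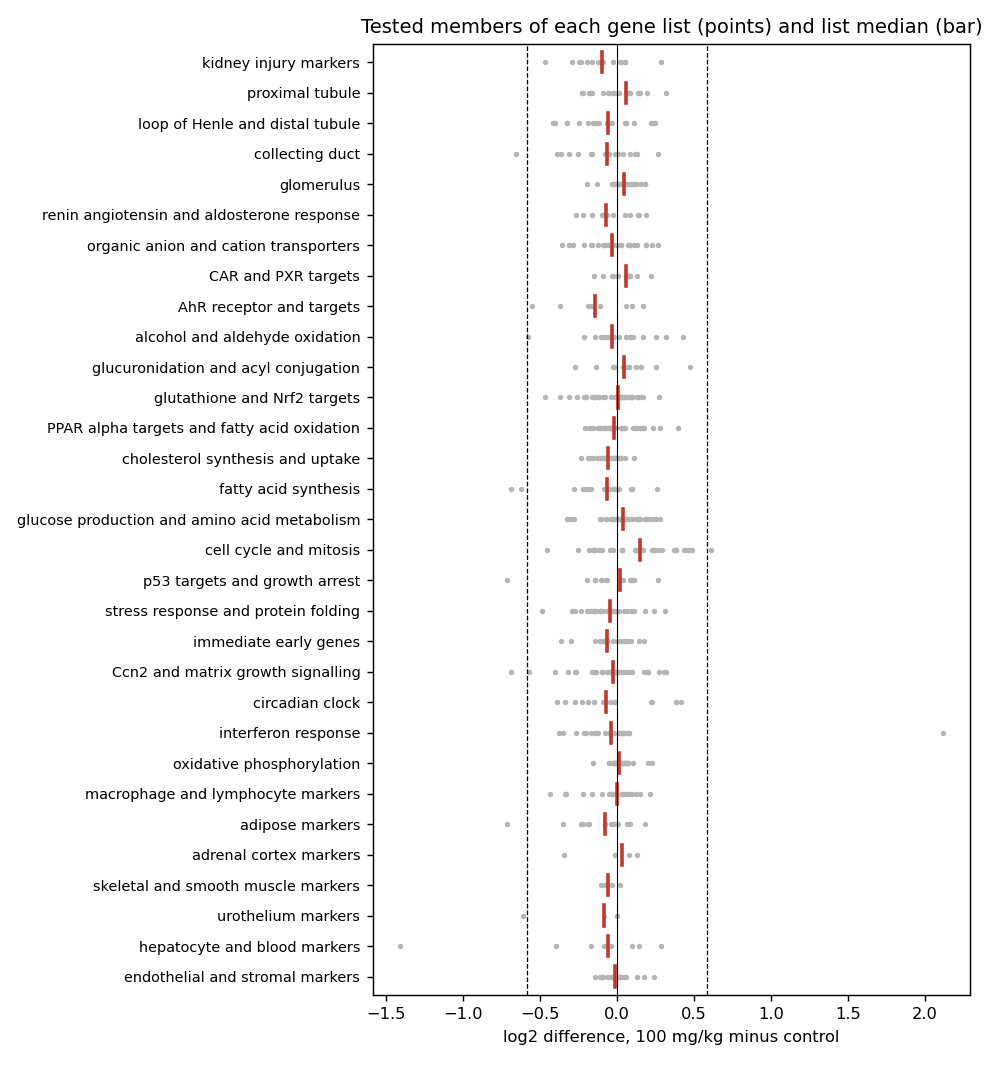
Each grey point is the log2 difference, 100 mg/kg minus control, of a tested gene in 1 of the 31 gene lists, each red bar is the list's median, and dashed lines mark 1.5-fold. List medians lie between -0.14 for the AhR list and 0.15 for the cell cycle list with all arrays, and these 2 span -0.17 to -0.04 and 0.07 to 0.20 with an array left out; 0 genes in any list passed the adjusted test.

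The kidney and liver differences at 100 mg/kg were compared in a single fit of both organs. Liver and kidney arrays carry the same doses and replicate numbers, the labels do not say whether a number marks the same rat in both organs, and the fit takes the 58 arrays as independent. Of 10665 genes, 0 passed the limma test (0%), with a smallest adjusted p of 0.326, and 380 (3.56%) had an unadjusted p under 0.05. The smallest p was that of Nusap1, at 0.37 in kidney and -0.50 in liver, a difference of 0.87 (SE 0.19, 95% interval 0.49 to 1.25). Without liver 100 mg/kg replicate 3, Nusap1 was the only gene called. Kif20a stood at 0.38 in kidney and -0.56 in liver, and Cdca3 at 0.56 and -0.37. Of 33 cell cycle genes tested in both organs, 12 had a higher kidney than liver difference at an unadjusted p under 0.05 (2.03% of all genes) and 0 a lower one (1.53%). Their median difference was 0.13 in kidney and -0.16 in liver. Atp11b, a lipid flippase, stood at 0.23 in kidney and -0.35 in liver, and Tm7sf2, a sterol reductase, at -0.17 in kidney and 0.43 in liver. Taf4, a subunit of the general transcription factor TFIID, stood at -0.16 in kidney and 0.12 in liver. Ccn2 was below control in both organs, by -0.57 in kidney and -0.86 in liver.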

How the data were processed

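Total RNA of each kidney and liver was hybridised to its own Affymetrix rat genome array, per the labels' protocols. The authors deposited log2 values summarised by RMA, per the submitters' processing notes. They cover 31099 probe sets and 58 arrays, and every sample column matched a label. The version of RMA, any background setting and whether organs were normalized together are not given in the sources used here. Values ran from 1.75 to 14.85. Arrays have no read depth, and their number limits the precision.

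Groups and replicate numbers came from the sample titles, which call the arrays biological replicates and name no batch. Of the probe sets, 57 were controls, 20826 had 1 gene symbol, 436 several and 9780 none. Symbols came from the platform annotation, and 20758 gene identifiers were found in the GRCr8 table with 0 changed symbols. A probe set was kept if it was above its array's 40th percentile on at least 4 kidney arrays (19661 probe sets), and the brightest probe set stood for a gene (11194 genes). Fits used limma 3.58.1 under R 4.3.3 (lmFit, eBayes with an intensity trend) over all 29 kidney arrays and their 7 dose groups, or all 58 arrays for the organ difference. A call is a two-sided Benjamini-Hochberg adjusted p under 0.05 over all genes of a comparison. Differences are on the log2 scale with the SE of the fit.

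The members, the 31 gene lists and the tests were chosen with earlier results of these data known. Counts for a list cover its tested genes only, and every list held further genes that were not tested. The rule for named genes took the 10 smallest p each way and the 5 largest differences each way without overlap. It added genes called at 300 or 500 mg/kg, the leading genes of the other comparisons, 3 members of each list by p and a fixed set of kidney markers, and genes outside it are marked in the text. It gave 143 genes, of which 110 are described. The other 33 had differences from -0.34 to 0.20, with 0 at an unadjusted p under 0.05. Alternatives were other filters, probe set rules, normalizations, eBayes settings, array weights, fewer groups, a 1.5-fold minimum, a replicate block and each array left out. The fits were tested on simulated data.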

Additional observations from a re-analysis of the deposited data

Results flagged for a closer look

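Single arrays that lay far from the rest of their group were sought with Dixon's test in the 2 groups for the 110 genes that the text describes out of the 143 named by the rule, 220 gene and group pairs in all. It marked 10, and chance alone marks about 5% of groups.

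Some of them concern genes lower or higher without overlap. Ccdc127 read 6.76 on 100 mg/kg replicate 2, with the nearest dosed array at 7.65. Ccn2 read 10.61 on control replicate 2, with the nearest control at 10.15, and Cdca3 read 7.12 on control replicate 5, with the nearest at 6.80. On the 100 mg/kg arrays, Hmox1 read 6.62 on replicate 2 (nearest 5.84), Asap2 8.15 on replicate 2 (nearest 8.04) and Copz2 5.88 on replicate 3 (nearest 6.16). On control replicate 1, Gclc read 12.74 (nearest 13.76), Nqo1 6.69 (nearest 7.23) and Lamb1 9.69 (nearest 9.55). Cry1 read 6.65 on control replicate 4 (nearest 6.0).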

How the results depend on the processing

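The count of 0 calls between 100 mg/kg and control held under all 22 alternatives, each array left out included, and the share of genes bounded within 1.5-fold stayed between 91.5% and 94.4%. The replicate block gave 0 calls and 93.5% there, 0 against 10 mg/kg, 0 for 300 against 100 mg/kg, 24 for 500 against 100 mg/kg and 0 for the organ difference. It moved no count by over 1.5 times, and control replicate 5, which has no partner, has no weight in it for the control comparison. Deviations of same-numbered 100 mg/kg and control arrays correlated at 0.30, -0.04, 0.06 and 0.05, so the numbers were not taken as pairs, and 1 of 4 dosed arrays correlated best with its own number. Between organs, each kidney array was set against the liver arrays of its own dose only. Among these, 27 of 29 kidney arrays correlated best with the liver array of the same number, a hint from the data and not the design. Control replicates 3 and 4 were the exceptions. The same-number correlations were 0.11 to 0.18 at 100 mg/kg and -0.03 to 0.13 in controls. With these numbers as a random replicate block, chosen after seeing the data, the organ difference still had 0 calls (limma, smallest adjusted p = 0.139) and 485 genes at an unadjusted p under 0.05.

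Without a filter on dim probe sets, 1 gene was called against 10 mg/kg (Tnfrsf17, chosen after its value was seen), and after quantile normalization 1 gene, Proc, was called lower at 300 than at 100 mg/kg. For 500 against 100 mg/kg the count was 8 with only the compared groups in the fit, 43 with array quality weights and 9 without both arrays of high adipose transcripts, a setting chosen after seeing the data. It was between 5 and 23 with an array left out, and in the organ difference it was between 0 and 1. The cause of these shifts was not tested, beyond the fewer arrays in some.

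Values near 0 changed sign under some settings, none with a call. With the mean over probe sets Cry2 was at 0.022. Array weights gave -0.019 for Lcn2 and -0.064 for Hmox1, and the replicate block gave 0.0083 for Proc and -0.0055 for Yars2. With an array left out, Lcn2 ranged from -0.042 to 0.12, Hmox1 from -0.11 to 0.23, Proc from -0.083 to 0.035, Yars2 from -0.069 to 0.070, Timp1 from -0.017 to 0.086, Cdkn3 from -0.039 to 0.12, Slc34a1 from -0.027 to 0.13, Clu from -0.018 to 0.19, Mki67 from -0.078 to 0.29 and Cry2 from -0.15 to 0.0037. Of the 110 genes described, 56 moved by over 1.5 times with some array left out. The median of the 3 urothelium markers ranged from -0.26 to 0.15 (without control replicate 5).

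Precision is limited by the 4 and 5 arrays. The labels do not say how each kidney was sampled, and the gene symbols follow the array design.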
